A study of Mus musculus with 22 samples.

Results

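Open chromatin that carried no peak of 3 histone acyl marks was described in the telencephalon, the forebrain division from which cortex and basal ganglia develop, of ICR mice at embryonic day 13.5 (E13.5). Regions were taken by merging the peaks of both E13.5 ATAC-seq libraries on chromosomes 1 to 19 and X that shared at least 1 bp, keeping the 18285 regions called in both libraries, and then keeping those that overlapped no E13.5 peak of acetylation at lysine 9 of histone H3 (H3K9ac), crotonylation at lysine 9 (H3K9cr) or lactylation at lysine 18 (H3K18la). This left 2566 of 18285 open regions (14.0%, 95% Wilson interval 13.5% to 14.5%), called unmarked here, against 15719 marked open regions. A region without a peak is one in which the caller reported none, which is not the same as a region without the mark. The regions were thus chosen by ATAC peak calls and by the absence of E13.5 mark peaks, so these values are given as a description and no test was made on them.

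The groups used were the E16.5 and E13.5 telencephalon of ICR embryos, with 2 libraries each of native ChIP-seq for H3K9ac, H3K9cr and H3K18la and of polyA RNA-seq, and with 2 ATAC-seq libraries at E13.5 only. No treatment, mutation or transgene is named in the labels, and both stages are normal development of an outbred strain. The libraries are described as biological replicates, and the number of embryos per library was not given in the sources used here. ATAC-seq of E16.5 telencephalon was not analysed here, so whether the regions were still open at E16.5 is not known. The RNA fitted the labelled tissue: all 9 telencephalon markers were expressed, while 7 markers of other brain parts summed to 2.02 to 10.5 CPM (a count brought to 1 common total for all libraries) per library and Hoxb1 of the hindbrain was listed at 0.

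ATAC-seq inserts adapters into DNA that is free of nucleosomes, which includes promoters, enhancers and insulators. Acetylation, crotonylation and lactylation of histone tails sit on nucleosomes, and H3K9ac is best known from active promoters and enhancers. CTCF, a zinc finger protein that works with cohesin in folding chromosomes, and repressors such as REST also bind open sites that need not carry such marks.

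Because promoters are where an open region without these marks is least usual, the unmarked regions that overlapped a promoter are shown by sequence. Windows of 300 bases, 250 before and 50 after an annotated gene start, came from RefSeq (GRCm38.p6), and 40 of 32851 windows, of 39 genes, were overlapped by an unmarked region. In the 4 windows printed here 5′ to 3′ on the strand of the gene, capitals mark each CG dinucleotide. Gna12 (a G protein alpha subunit; chr5:140830382-140830681, minus strand) had the strongest open region of the 40, Kcnh1 (a voltage-gated potassium channel; chr1:192190527-192190826, plus strand) is a CG-rich window whose gene rose in RNA, Foxd2 (a forkhead transcription factor; chr4:114908849-114909148, minus strand) is CG-rich with no mark peak close by, and Glipr1l1 (a sperm protein; chr10:112059939-112060238, plus strand) is CG-poor and isolated. They were chosen with their values known.
Gna12: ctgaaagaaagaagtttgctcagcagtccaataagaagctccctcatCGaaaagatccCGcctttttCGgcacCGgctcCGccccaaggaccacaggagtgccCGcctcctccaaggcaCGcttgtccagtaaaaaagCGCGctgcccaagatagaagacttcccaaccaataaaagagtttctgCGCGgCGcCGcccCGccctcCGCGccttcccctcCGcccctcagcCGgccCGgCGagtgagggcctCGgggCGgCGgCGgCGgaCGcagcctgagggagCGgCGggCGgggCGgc
Kcnh1: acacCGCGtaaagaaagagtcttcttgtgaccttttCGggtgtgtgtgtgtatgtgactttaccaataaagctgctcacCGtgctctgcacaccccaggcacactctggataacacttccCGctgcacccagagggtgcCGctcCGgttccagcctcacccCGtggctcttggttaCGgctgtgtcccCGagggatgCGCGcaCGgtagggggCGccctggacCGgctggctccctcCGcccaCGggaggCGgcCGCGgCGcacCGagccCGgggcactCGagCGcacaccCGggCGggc
Foxd2: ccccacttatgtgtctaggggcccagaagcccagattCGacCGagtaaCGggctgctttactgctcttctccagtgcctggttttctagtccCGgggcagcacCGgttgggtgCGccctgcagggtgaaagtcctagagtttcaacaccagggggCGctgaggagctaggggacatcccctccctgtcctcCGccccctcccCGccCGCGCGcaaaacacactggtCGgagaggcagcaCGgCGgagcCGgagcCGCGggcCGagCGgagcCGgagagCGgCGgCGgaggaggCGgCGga
Glipr1l1: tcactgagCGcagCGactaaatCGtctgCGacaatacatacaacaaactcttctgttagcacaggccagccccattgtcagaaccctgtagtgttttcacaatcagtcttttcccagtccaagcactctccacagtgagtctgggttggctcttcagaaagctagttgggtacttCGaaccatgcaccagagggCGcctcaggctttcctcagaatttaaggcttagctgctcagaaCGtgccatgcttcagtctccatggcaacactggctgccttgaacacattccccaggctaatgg

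Most promoter windows with an unmarked region were poor in CG. Gna12 held 30 CG dinucleotides, Kcnh1 27, Foxd2 26 and Glipr1l1 7. Over the 40 windows with an unmarked region the median was 7 CG, against 23 in the 9062 windows overlapped by marked open regions only, and all 32851 windows had a median of 7. At least 20 CG were found in 7 of the 40 windows (17.5%), against 63.4% of the windows with marked regions and 26.5% of all windows. The 7 were those of Gna12, Ddx43 (an RNA helicase), Mfsd12 (a transporter of lysosomes and melanosomes), Kcnh1, Foxd2, Rbm46 (a germ cell RNA-binding protein) and Tfeb (a transcription factor of lysosomal genes). Of these, Gna12, Ddx43, Mfsd12, Kcnh1 and Tfeb had an E13.5 mark peak within 1000 bp of the open region, with gaps of 5, 43, 25, 74 and 0 bp, and Foxd2 and Rbm46 had gaps of 3913 and 26871 bp. The GC box GGGCGG, searched on both strands, was in 25% of the 40 windows, 70.9% of windows with marked regions and 35.7% of all windows.

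The core of the CTCF motif was searched on both strands as CC, any 3 bases, then AGGNGGC. It was in 3 of the 40 windows (7.5%), against 6.4% of the windows with marked regions and 3.43% of all windows. In each of the 3, the match lay inside the open part of the window. These matches are shown with 10 bases on each side, on the strand of the match, with the match in capitals, for Grpr (the receptor for gastrin-releasing peptide; chrX:163549888-163549919, minus strand), Spef2 (a protein of sperm tails and cilia; chr15:9748948-9748979, minus strand) and the lncRNA Gm36126 (chr19:29684287-29684318, plus strand).
Grpr: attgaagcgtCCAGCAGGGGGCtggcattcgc
Spef2: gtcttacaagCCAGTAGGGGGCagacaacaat
Gm36126: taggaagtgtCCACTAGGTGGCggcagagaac
The 3 open regions lay 172461 bp (Grpr), 18853 bp (Spef2) and 35516 bp (Gm36126) from the nearest E13.5 mark peak. None had a mark peak in any E16.5 library. Of all unmarked regions, 50.3% lay over 10000 bp from an E13.5 mark peak and 71.2% had no mark peak in any E16.5 library. The homeobox motif TAATTA was in 10% of the 40 windows, 2.05% of windows with marked regions and 5.29% of all windows. No window of the 40 held the NFI, REST, POU or NRF1 motif, which were in 0.0365%, 0.0517%, 1.74% and 1.75% of all windows. A match is a run of letters, not a bound site, and with 40 windows 1 window is 2.5%. Only exact matches to a pattern were counted, so sequences that differ from it at 1 base were not. The printed Foxd2 window, for example, holds a sequence 1 base off the CTCF pattern.

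RNA was followed for the 23 protein-coding genes among the 39. Of these, 14 did not pass the filter on low counts. Of all placed protein-coding genes 35.9% did not pass it or had no entry in the RNA data. Of the 9 tested, 4 were higher and 1 was lower at E16.5 (edgeR quasi-likelihood test, Benjamini-Hochberg adjusted p under 0.05). Of all 16237 tested genes 28.4% were higher and 29.2% lower, and of the protein-coding ones 30.3% and 32.3%. Kcnh1 had 12.7 and 10.7 CPM at E16.5, against 3.54 and 2.65 CPM at E13.5, and the stages did not overlap (log2 change 1.92, SE 0.21, edgeR quasi-likelihood adjusted p = 0.00011). Rasgrp3, an activator of Ras proteins with an isolated open promoter 84952 bp from the nearest mark peak, had 12.2 and 11.9 CPM at E16.5 and 2.34 and 5.02 CPM at E13.5 (log2 change 1.70, SE 0.29, edgeR adjusted p = 0.00142). Gna12 fell, with 120.8 and 110.6 CPM at E16.5 and 153 and 155 CPM at E13.5 (log2 change -0.41, SE 0.06, edgeR adjusted p = 0.000526), and Mfsd12 rose, with 25.4 and 23.1 CPM at E16.5 and 14.8 and 14.4 CPM at E13.5 (log2 change 0.73, SE 0.11, edgeR adjusted p = 0.000548). In contrast Pax9, a paired box factor of pharyngeal and skeletal tissue, had 0 CPM in all 4 libraries, and Glipr1l1 had 0.057 and 0 CPM at E16.5 and 0 in both E13.5 libraries. Foxd2 was at 0.114 and 0 CPM at E16.5 and 0.0586 and 0.0541 CPM at E13.5. Tph2, the enzyme of serotonin synthesis in the brain, stayed between 0.108 and 0.176 CPM in all 4 libraries.

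Away from these few promoters, the unmarked regions lay mostly outside gene ends. A gene end is here the first or last base of a RefSeq protein-coding gene, which the annotation used gives without its strand. Within 2000 bp of one lay 149 unmarked regions (5.81%), against 53.5% of the marked open regions. Gene bodies held 980 (38.2%), against 22.9% of the marked, and 1437 (56.0%) lay between genes, against 23.6% of the marked. The median gap to the nearest gene end was 48696 bp for unmarked and 928 bp for marked regions. Where gene starts were known, 58 of 2460 unmarked regions (2.36%) were within 2000 bp of one, against 48.0% of marked regions. Read the other way, 1.74% of the open regions at gene ends were unmarked, 21.4% of those in gene bodies and 27.9% of those between genes.

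**Figure D1:**
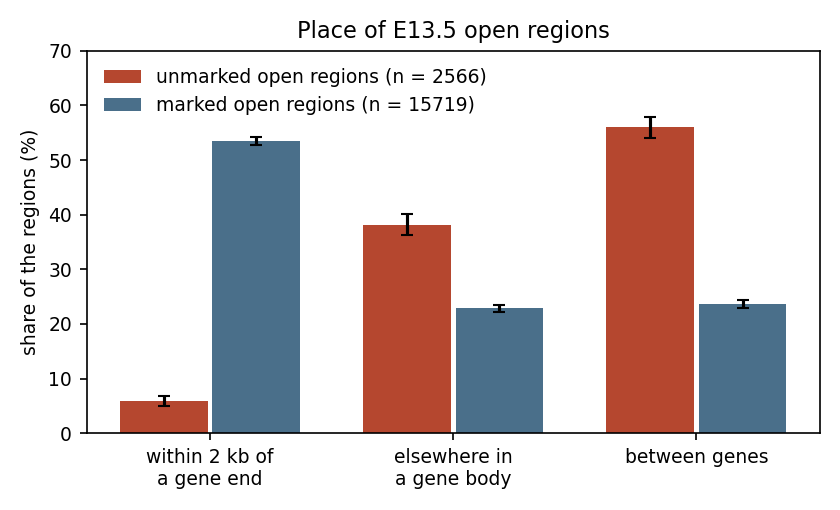
Share of unmarked and of marked E13.5 open regions (y axis, percent) by place relative to protein-coding genes (x axis); bars are shares over all regions of a kind and error bars 95% Wilson intervals, which cover counting of regions only. Unmarked regions were at 5.81% within 2000 bp of a gene end and marked regions at 53.5%, while between genes the shares were 56.0% and 23.6%.

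The regions in gene bodies were spread over 787 genes, of which 40 held at least 3. The most, 5 each, were in Ctnna2 (alpha-N-catenin, a link of cadherins to actin in neurons), Kcnip4 (a potassium channel-interacting protein) and Lsamp (a limbic adhesion molecule), followed by Cntnap2, Csmd1 and Etl4 with 4 each. These are long genes, from 900.3 kb for Etl4 to 2241 kb for Cntnap2 (a neurexin-family adhesion protein). Their RNA did not move in 1 direction. Lsamp rose, with 136 and 145 CPM at E16.5 and 32.9 and 30.7 CPM at E13.5 (log2 change 2.14, SE 0.06, edgeR adjusted p = 5.2e-07), and Csmd1, a complement-control membrane protein, rose with 49.7 and 38.9 CPM at E16.5 and 13.6 and 11.7 CPM at E13.5 (log2 change 1.81, edgeR adjusted p = 2e-05). Etl4 fell, with 27.3 and 26.6 CPM at E16.5 and 71.8 and 58.9 CPM at E13.5 (log2 change -1.28, edgeR adjusted p = 1.97e-05), and Cntnap2 also fell (log2 change -0.56, edgeR adjusted p = 0.000281). Ctnna2, at 197 and 198 CPM at E16.5 and 207 and 208 CPM at E13.5, did not pass the test (edgeR adjusted p = 0.258).

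The gap from an unmarked region to the nearest E13.5 mark peak fell into a near and a far range. Of the 2566 regions, 689 (26.9%) lay within 100 bp of a mark peak and 9 of these touched one, while 1290 (50.3%) were over 10000 bp away and 224 over 100000 bp away. A gap of over 300 bp and up to 3000 bp was rare (133 regions). Within 1000 bp, 922 regions (35.9%) had a mark peak, 388 of them on both sides and 534 on 1 side, and the other 1644 had none. The near peaks were mostly of lactylation: 894 of the 922 (97.0%) had H3K18la within 1000 bp, 132 (14.3%) H3K9ac and 72 (7.81%) H3K9cr, and for 779 (84.5%) H3K18la was the only mark there. H3K18la also had the longest peak lists at E13.5, with 73359 and 69145 peaks, while H3K9ac had 37305 and 34520 and H3K9cr 32556 and 28960. The part of list length in this count was not tested.

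**Figure D2:**
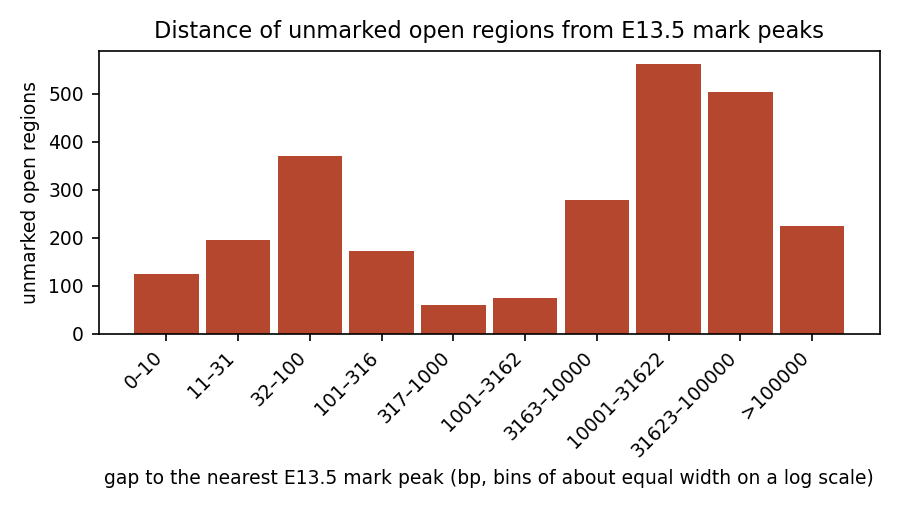
Number of unmarked open regions (y axis) by the gap to the nearest E13.5 peak of any of the 3 marks (x axis, bp, in bins of about equal width on a log scale). The counts are high in the bin that ends at 100 bp (370 regions) and in the bin that starts at 10000 bp (562 regions), and low in the bins that end (60 regions) and start (75 regions) at 1000 bp.

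The overlap rule has a sharp edge. The members near Spag16, Snx7 and Agk lay directly against a mark peak, with ATAC fold enrichments (the authors' summit signal over the caller's local background) of 5.36 and 12.5, of 8.38 and 5.93, and of 14.2 and 16.1 in ATAC replicates 1 and 2. The open regions near Rgs21, Fam241a and Pappa overlapped a mark peak by 1 bp and so were not members, at 5.57 and 8.64, at 4.80 and 4.77, and at 11.8 and 8.94. In all, 468 members lay within 50 bp of a mark peak and 452 marked regions overlapped one by at most 50 bp, whereas 13240 of 15719 marked regions were covered whole.

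Unmarked regions were shorter and weaker than marked ones. Their median length was 249 bp (range 121 to 1482 bp), against 420 bp for marked regions. Median ATAC fold enrichment was 6.83 and 6.93 in replicates 1 and 2, against 8.05 and 8.31 in marked regions, and the median pileup at the summit was 10 and 10, against 14 and 15. Of open regions up to 200 bp long 48.2% were unmarked, and of those over 500 bp 0.949%. Of regions with a mean ATAC fold enrichment up to 5 the unmarked share was 23.6%, and above 15 it was 1.89%. The part of length in the overlap was not tested. Within each of the length classes the share at gene ends was lower for unmarked regions. It was 6.41% against 31.8% up to 200 bp, with 718 unmarked regions, and 3.85% against 71.9% over 500 bp, with only 52. The set also depended on both ATAC libraries: with replicate 2 alone 7018 peaks were unmarked and with replicate 1 alone 6052, and among regions called only in replicate 1 or only in replicate 2 the unmarked share was 40.0% and 42.0%.

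**Figure D3:**
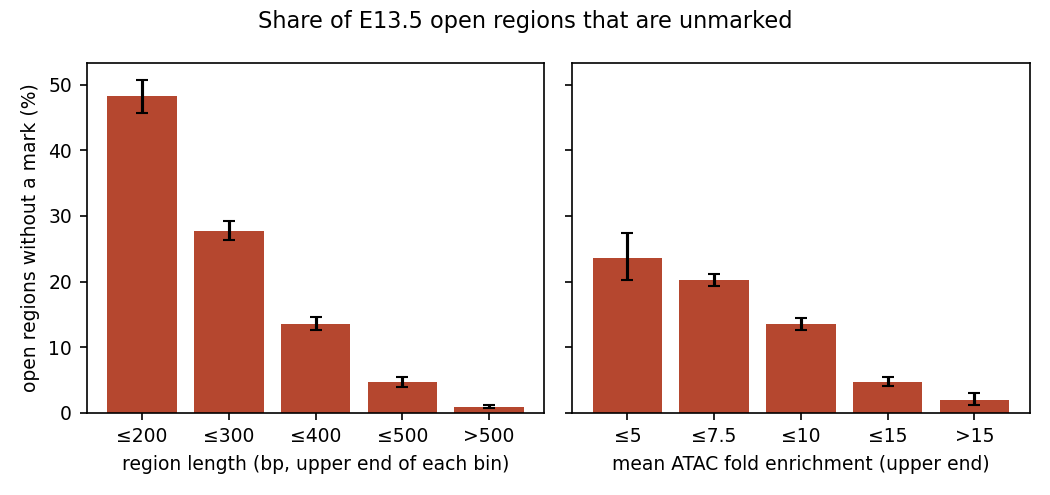
Percent of E13.5 open regions without a mark peak (y axis) by region length (left, bp) and by mean ATAC fold enrichment over both libraries (right); error bars are 95% Wilson intervals for the counting of regions. The unmarked share was 48.2% up to 200 bp and 0.949% above 500 bp, and 23.6% up to a fold enrichment of 5 and 1.89% above 15.

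By fold enrichment, though not by pileup, the highest values were in unmarked regions. The highest pileups were 131 and 132 in unmarked and 168 and 178 in marked regions in ATAC replicates 1 and 2. A mean ATAC fold enrichment over 25 was reached by 8 unmarked regions and by 1 marked region. These 8 were 122 to 490 bp long, 5 of them at most 200 bp, and none had a mark peak in any E16.5 library. The highest was chr18:65837287-65837461 (GRCm38), between genes and 19626 bp from an end of Sec11c (a signal peptidase subunit), with fold enrichments of 40.3 and 43.4 in replicates 1 and 2. Next were chr18:3638984-3639144, 122579 bp from Bambi (a decoy receptor of the TGF-beta family), with 42.9 and 40.8, and chr9:24745088-24745251 in the body of Tbx20 (a T-box factor of heart and hindbrain motor neurons), with 39.5 and 41.1. Both libraries gave near-equal values at each of these sites. The sites had to be called in both and were ranked by the mean of these values, so this is no separate support.

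The others over 25 were a site in the body of Zfp804b nearest to Tex47 with 34.1 and 38.4, a site 21 bp from the end of Gm20594 with 36.5 and 33.8, one 12921 bp from Abcb11 (the bile salt export pump) with 31.2 and 33.0, one in the body of Stxbp4 with 32.2 and 29.8, and one 32006 bp from Eea1 (an early endosome tether) with 24.0 and 26.4. Below them came sites near Rpusd4 with 20.7 and 20.7 and in Zdhhc3 (a palmitoyltransferase) with 20.01 and 19.6. Except for the site near Eea1, which had a mark peak 610 bp away, all 10 lay at least 4268 bp from any E13.5 mark peak. The sequence at these sites and its copy number in the genome were not analysed here.

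At E16.5, few of the unmarked regions carried a mark. Since the regions had no mark peak at E13.5, a difference between the stages could only be a gain. H3K9ac was called in both E16.5 libraries in 204 regions (7.95%), H3K9cr in 148 (5.77%) and H3K18la in 132 (5.14%), against 87.6%, 85.4% and 76.1% of the marked open regions, and against 76.4%, 74.2% and 66.2% of all 18285 open regions. By library, the shares of unmarked regions with a peak were 12.2% and 13.6% for H3K9ac, 8.57% and 10.5% for H3K9cr and 6.94% and 14.9% for H3K18la in E16.5 replicates 1 and 2. The 2 H3K18la libraries stood furthest apart, and their lists held 62068 and 76031 peaks. The H3K9ac lists were longer at E16.5, with 49640 and 50656 peaks, than at E13.5, with 37305 and 34520, and so were those of H3K9cr, with 41063 and 42293 at E16.5 and 32556 and 28960 at E13.5. With every list of a mark held to the same number of its strongest peaks, the shares were 4.01% for H3K9ac, 2.59% for H3K9cr and 5.34% for H3K18la. That number was set for each mark, at 34520 for H3K9ac, 28960 for H3K9cr and 62068 for H3K18la. The marks were thus not compared at equal list length. Without E13.5 replicate 1 of H3K18la in the choice of regions, the H3K18la share at E16.5 was 8.45%. No mark peak was found in any E16.5 library in 1828 unmarked regions (71.2%), against 3.06% of marked regions.

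**Figure D4:**
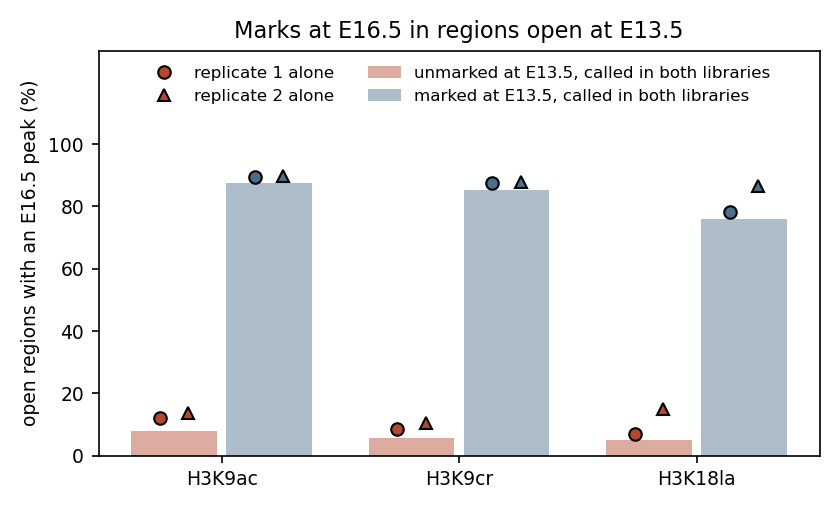
Percent of E13.5 open regions with a peak at E16.5 (y axis) for each mark (x axis); bars are regions called in both E16.5 libraries, circles replicate 1 alone and triangles replicate 2 alone, for regions unmarked (red) and marked (blue) at E13.5. Unmarked regions lie between 5.14% and 14.9% and marked regions between 76.1% and 89.8%.

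At least 1 mark in both E16.5 libraries was found in 319 regions (12.4%). H3K9ac alone and H3K18la alone were found in 80 regions each, H3K9ac with H3K9cr in 76, all 3 marks in 37, H3K9cr alone in 31, H3K9ac with H3K18la in 11 and H3K9cr with H3K18la in 4. Of the 148 regions with H3K9cr, 113 thus also had H3K9ac. Regions with an E13.5 mark peak within 1000 bp had H3K9ac at E16.5 in 11.2%, H3K9cr in 6.83% and H3K18la in 9.76%, and those with none within 1000 bp in 6.14%, 5.17% and 2.55%. At gene ends the shares were 10.1%, 9.40% and 1.34% for H3K9ac, H3K9cr and H3K18la, in gene bodies 8.67%, 5.51% and 4.69%, and between genes 7.24%, 5.57% and 5.85%. The gains were weak: the median fold enrichment in E16.5 replicates 1 and 2 was 5.83 and 5.89 for H3K9ac, against 35.1 and 32.4 in marked regions, 5.62 and 5.44 for H3K9cr, against 40.2 and 37.9, and 5.11 and 5.55 for H3K18la, against 8.16 and 8.99.

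A few gains were strong. The region chr10:79322486-79322646, between genes and 27950 bp from Vmn2r81 (a vomeronasal receptor), had H3K9ac at 40.1 and 34.8 and H3K9cr at 47.3 and 47.7 in E16.5 replicates 1 and 2, and no H3K18la peak; it lay 10 bp from an E13.5 mark peak. The region chr17:55367517-55367778, 77339 bp from St6gal2 (a sialyltransferase) and 77161 bp from the nearest E13.5 mark peak, had all 3 marks, H3K9ac at 17.7 and 19.7, H3K9cr at 13.9 and 15.6 and H3K18la at 8.18 and 8.04. The region chr5:48345467-48345913 near Pacrgl also was isolated at E13.5, by 26050 bp, and had H3K9cr at 15.2 and 18.8 and H3K9ac at 13.2 and 13.1. A region 54159 bp from Eda2r (a receptor of the TNF family) on chromosome X had H3K9ac at 13.5 and 17.2 and neither of the other marks.

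The 4 strongest gains of H3K18la all lay within 149 bp of an E13.5 mark peak. They were a region between genes nearest to Gsdmc with 16.1 and 15.3, a region in the body of Etv6 (an ETS-family repressor) with 12.02 and 15.5, chr11:16831902-16832433 in the body of Egfr with 14.1 and 12.6, and chr15:32766388-32766541, 70046 bp from Sema5a, with 13.3 and 11.1. A region 109968 bp from Galnt13, an enzyme that starts O-glycans in neurons, lay 4 bp from an E13.5 mark peak and had H3K9ac at 20.5 and 15.4, H3K9cr at 14.4 and 16.6 and H3K18la at 7.93 and 11.9. Whether the peaks beside such regions at E13.5 and over them at E16.5 are a single peak of changed width was not tested.

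The genes nearest to the regions were then followed in RNA. Each region was linked to the protein-coding gene with the nearest gene end, if within 100000 bp, which linked 1665 regions to 1457 genes; 1278 genes had 1 region, 151 had 2 and 28 had 3 or more. Of the 1077 linked genes that passed the filter on low counts, 407 (37.8%) were higher and 287 (26.6%) lower at E16.5 (edgeR quasi-likelihood test, Benjamini-Hochberg adjusted p under 0.05), against 28.4% higher and 29.2% lower of all 16237 tested genes. Their median log2 change was 0.12, against -0.01 over the 13870 tested protein-coding genes, of which 30.3% were higher and 32.3% lower. Genes linked to marked open regions were higher in 27.6% and lower in 36.3%. Being nearest does not show that a region acts on a gene, and in bulk tissue fewer cells of a type and less RNA per cell cannot be told apart.

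Gene length moved with this share. Tested genes linked to unmarked regions spanned a median of 79.5 kb, against 25.5 kb for all tested protein-coding genes. Among genes over 100 kb, 45.6% of the 474 linked and 45.5% of all 2181 were higher at E16.5, and 20.3% and 23.0% were lower. Among genes up to 100 kb, 31.7% of the 603 linked and 27.5% of all 11689 were higher, and 31.7% and 34.0% were lower. For higher RNA, the linked share was thus close to the background among the long genes and above it among the shorter ones. The part of gene length in these shares was not tested.

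Genes linked to an unmarked region and to no marked one were often not tested. There were 476 of them, of which 459 had an entry in the RNA data. In all, 273 (57.4%) had no such entry or did not pass the filter on low counts. The same share was 35.9% of all placed protein-coding genes and 8.49% of genes linked to marked regions. The 203 tested had median levels of 3.96 and 5.02 CPM in E13.5 replicates 1 and 2, against 28.9 and 29.1 CPM for all tested protein-coding genes. Of these, 96 (47.3%) were higher and 31 (15.3%) lower at E16.5. Up to 100 kb in span, 44.9% of 136 were higher, and over 100 kb 52.2% of 67. A gene low at E13.5 passes the filter more readily when it is high at E16.5, so this count is not read as a result about these genes.

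Of the linked genes that averaged 10 CPM or more, Gabra5 and Egfr rose most. Gabra5, a subunit of GABA-A receptors, had 24.3 and 22.5 CPM at E16.5, against 2.46 and 2.15 CPM at E13.5 (log2 change 3.34, SE 0.15, edgeR adjusted p = 1.55e-06). Its region, in the gene body, had H3K9ac in 1 E16.5 library at 3.19 and was 25295 bp from an E13.5 mark peak. Egfr, the epidermal growth factor receptor of late progenitors and glia, had 31.2 and 29.5 CPM at E16.5, against 3.48 and 2.54 CPM at E13.5 (log2 change 3.34, SE 0.16, edgeR adjusted p = 1.78e-06). Its region, flanked on both sides, had all 3 marks in both E16.5 libraries, with H3K9ac at 8.51 and 6.003 and H3K9cr at 7.76 and 8.65 beside H3K18la at 14.1 and 12.6, and no marked open region was linked to Egfr.

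Tnc, the matrix protein tenascin C, had 456 and 388 CPM at E16.5, against 48.5 and 58.1 CPM at E13.5 (log2 change 2.98, SE 0.11, edgeR adjusted p = 7.5e-07). Kcnk9, a background potassium channel, had 18.2 and 19.7 CPM at E16.5, against 2.10 and 2.65 CPM at E13.5 (log2 change 2.99, SE 0.17). Rxrg (a retinoid X receptor), Dync1i1 (a dynein intermediate chain), Luzp2 (a leucine zipper protein) and Trpm3 (a cation channel) followed with log2 changes of 2.79, 2.57, 2.47 and 2.41. In each of these 8 genes the stages did not overlap, which their choice required. None of the regions of Kcnk9 and Rxrg had a mark peak in any E16.5 library, and that of Trpm3 had H3K18la in replicate 2 only, at 8.61.

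At that level Mcm3 and Depdc1b fell most after Otx2. Mcm3, a subunit of the replicative helicase, had 46.4 and 41.03 CPM at E16.5, against 143 and 147 CPM at E13.5 (log2 change -1.73, edgeR adjusted p = 9.4e-07). Mcm5, of the same helicase, had 51.5 and 48.9 CPM at E16.5, against 139 and 150.4 CPM at E13.5 (log2 change -1.53, edgeR adjusted p = 9.9e-07). Sgo1, a protector of centromeric cohesion, had 9.16 and 8.99 CPM at E16.5, against 28.8 and 28.3 CPM at E13.5 (log2 change -1.65). Hk2 (a hexokinase), Depdc1b, Fignl1 (an ATPase of DNA repair) and Gldc (the glycine decarboxylase of neural progenitors) had log2 changes of -1.68, -1.69, -1.58 and -1.56. The region of Mcm3 lay 852 bp from a gene end with ATAC fold enrichments of 13.8 and 6.94, and had H3K9cr in E16.5 replicate 2 only.

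Otx2, a homeobox factor of the anterior brain and choroid plexus, had the largest fall, with 4.25 and 4.58 CPM at E16.5 and 13.8 and 23.2 CPM at E13.5 (log2 change -2.07, SE 0.25, edgeR adjusted p = 0.000221). Its region, 42225 bp away and flanked by mark peaks on both sides, the nearest 69 bp off, gained H3K9cr in both E16.5 libraries at 4.93 and 4.70, and had H3K9ac in replicate 2 only at 4.61. Ttr, the transthyretin of choroid plexus and itself linked to an unmarked region, was uneven between libraries, at 0.615 and 19.3 CPM at E16.5 and 0.48 and 8.66 CPM at E13.5 in replicates 1 and 2 (edgeR adjusted p = 0.466). The 7 markers of other brain parts summed to 2.02 and 2.34 CPM at E16.5 and 3.88 and 10.5 CPM at E13.5, highest in E13.5 replicate 2, the library with the most Otx2. The part of choroid plexus or of other brain parts in the Otx2 values was not tested.

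**Figure D5:**
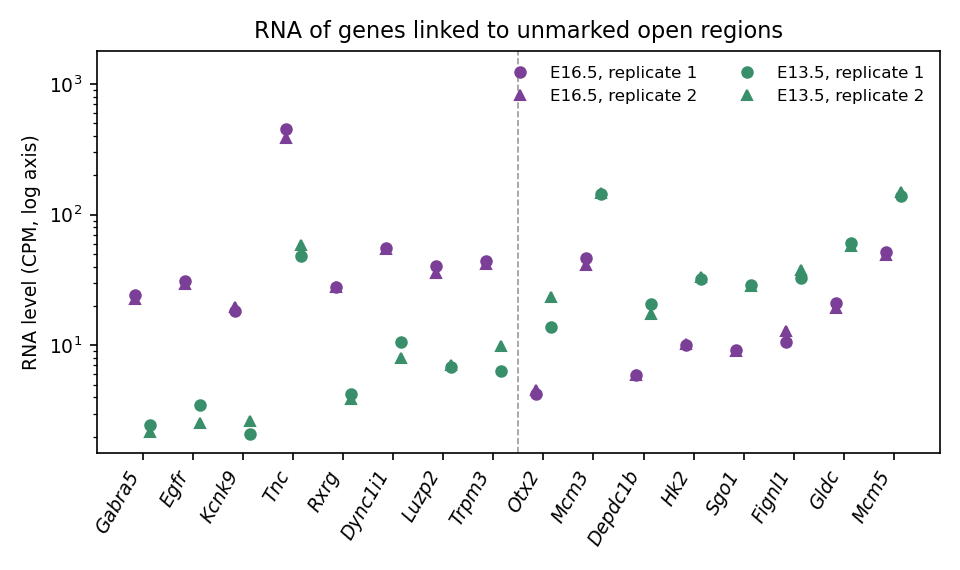
RNA level (y axis, CPM, log axis) of the 8 rising (left of the dashed line) and 8 falling (right) linked genes with the largest change; purple marks E16.5, green E13.5, circles replicate 1 and triangles replicate 2. Tnc is highest at 456 and 388 CPM at E16.5, and Otx2 shows the widest gap between its E13.5 libraries, 13.8 and 23.2 CPM.

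Genes whose unmarked region gained H3K9ac or H3K9cr in both E16.5 libraries did not move in a single direction. Of 132 tested, 55 (41.7%) were higher and 34 (25.8%) lower at E16.5. This is against the 28.4% and 29.2% of all tested genes, and 30.3% and 32.3% of the protein-coding ones. Of the 795 tested genes linked to a region with no mark peak in any E16.5 library, 37.7% were higher and 25.2% lower. The largest rises with a gain, after Egfr, were Slc7a14 (of the amino acid transporter family), with 31.2 and 29.3 CPM at E16.5 and 6.01 and 5.51 CPM at E13.5, Gnal (the olfactory-type G protein subunit of the striatum), with 133 and 134 CPM at E16.5 and 27.4 and 24.4 CPM at E13.5, and Col25a1 (a membrane collagen of neurons), with 23.9 and 22.7 CPM at E16.5 and 2.94 and 6.4 CPM at E13.5. Their log2 changes were 2.39, 2.37 and 2.30. One of the 2 Gnal regions had all 3 marks in both E16.5 libraries, with H3K9ac at 5.91 and 11.01, and the other had none. The gaining regions of Slc7a14 and Gnal lay 2 and 27 bp from an E13.5 mark peak, and that of Col25a1 19042 bp.

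The largest falls with a gain, after Otx2, were those of Sema5a, Ror2 and Prkd1. Sema5a, a semaphorin of axon guidance, had 83.9 and 82.5 CPM at E16.5, against 189 and 195 CPM at E13.5 (log2 change -1.21, SE 0.05, edgeR adjusted p = 1.25e-06), while 1 of its 2 regions had H3K9ac at 12.3 and 8.004 and H3K18la at 13.3 and 11.1. Ror2, a Wnt5a receptor, had 7.49 and 8.34 CPM at E16.5 and 18.3 and 12.2 CPM at E13.5 (log2 change -0.94, edgeR adjusted p = 0.00454), and its region, 308 bp from a gene end, had H3K9ac at 7.02 and 6.91 and H3K9cr at 9.90 and 7.67. Prkd1, protein kinase D1, had 12.2 and 13.9 CPM at E16.5 and 25.7 and 22.3 CPM at E13.5 (log2 change -0.87, edgeR adjusted p = 0.000476). In these 3 genes a linked region had a mark peak in both E16.5 libraries while the RNA was lower. A mark peak already lay beside these regions at E13.5, 4 bp away for Sema5a, 5 bp for Ror2 and 217 bp for Prkd1. Whether the gains are peaks of changed width was not tested.

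By gene list, axon guidance had the most linked genes, 6 of 30 (20%) with 9 regions, against 6.74% of all placed protein-coding genes. Of the 6, 4 were higher and 2 lower at E16.5, and over the whole list 15 were higher and 9 lower. Of all tested protein-coding genes 30.3% were higher and 32.3% lower. Robo2, a Slit receptor, had 409 and 405 CPM at E16.5, against 253 and 245 CPM at E13.5 (log2 change 0.71, edgeR adjusted p = 5.9e-06). Sema3a, a repellent semaphorin with 2 regions and no linked marked region, and Nrcam, an adhesion molecule, rose with log2 changes of 0.45 and 0.48. Among clustered protocadherin and adhesion genes, taken as 1 list, 4 of 28 were linked, Lsamp, Cntn4 and Ncam2 higher and Cntnap2 lower. Over that list 24 of 27 tested were higher and 1 was lower. Ncam2, a neural cell adhesion molecule, had 19.3 and 19.8 CPM at E16.5 and 9.67 and 10.4 CPM at E13.5, and its upstream region was among the stronger ones, at ATAC fold enrichments of 14.1 and 14.3.

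Over all placed protein-coding genes 6.74% were linked to an unmarked region, and of all tested ones 30.3% were higher and 32.3% lower. Of 25 telencephalon and progenitor factors 2 were linked and both were lower, Hes1 (a Notch target, log2 change -0.90) and Nfia (a gliogenic factor, -0.96); over the list 21 of 25 were lower and 1 was higher. Of 24 proneural and cortical neuron factors 4 were linked, Rorb and Tle4 higher (0.65 and 0.24) and Neurod1 and Neurod4 lower (-0.43 and -0.998); over the list 7 were higher and 13 lower. Of 20 ventral and inhibitory neuron factors Foxp2 alone was linked, at 47.3 and 46.5 CPM at E16.5 and 33.5 and 41.3 CPM at E13.5 (log2 change 0.33, edgeR adjusted p = 0.0222), a call lost without RNA replicate 1 of either stage (adjusted p up to 0.141); 3 of the list were higher and 14 lower. Of 32 synapse and channel genes 3 were linked, of which 2 were higher and none was lower. Gabra2, a subunit of GABA-A receptors, had 56.8 and 53.5 CPM at E16.5 and 20.9 and 24.6 CPM at E13.5 (log2 change 1.27, edgeR adjusted p = 1.35e-05), and Kcnq3, a potassium channel, had 124 and 132 CPM at E16.5 and 118 and 113 CPM at E13.5 (edgeR adjusted p = 0.053); 30 of 32 were higher.

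Of 20 cell cycle genes Mcm3 and Mcm5 were linked, and all 20 were lower. For this and the next lists too, the shares over all tested protein-coding genes were 30.3% higher and 32.3% lower. Of 23 imprinted genes placed, Usp29 alone was linked (edgeR adjusted p = 0.126); 5 were higher and 14 lower. Of 32 non-neural and late lineage genes Ttr alone was linked; 13 of 17 tested were higher and 2 lower. Of 12 CTCF and cohesin genes placed, Wapl, which releases cohesin, was linked, and all 12 were lower at E16.5. Ctcf had 139 and 133 CPM at E16.5, against 195 and 182 CPM at E13.5 (log2 change -0.47, SE 0.06, edgeR adjusted p = 0.000206), Rad21, a cohesin subunit, had 225.6 and 222 CPM at E16.5, against 363 and 379 CPM at E13.5 (log2 change -0.73), and Rest had 26.5 and 28.1 CPM at E16.5, against 46.1 and 43.3 CPM at E13.5 (log2 change -0.71).

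The genes with the most unmarked regions were Col14a1 (a fibril-associated collagen) with 4, followed by genes with 3, of which the first by name are Adgrg6, Camk2d, Cd244a and Eya1. Camk2d, a calcium and calmodulin-dependent kinase, rose, with 45.5 and 42.0 CPM at E16.5 and 28.3 and 28.1 CPM at E13.5 (log2 change 0.63, SE 0.08, edgeR adjusted p = 0.000222). Col14a1 had 2.29 and 2.4 CPM at E16.5 and 1.44 and 2.26 CPM at E13.5 (edgeR adjusted p = 0.42). Adgrg6, an adhesion receptor, had 2.29 and 1.85 CPM at E16.5 and 1.02 and 1.43 CPM at E13.5 (edgeR adjusted p = 0.104), and Eya1, a transcriptional co-activator, had 9.55 and 8.17 CPM at E16.5 and 10.1 and 8.82 CPM at E13.5 (edgeR adjusted p = 0.646). Cd244a, a receptor of natural killer cells, was at 0 in all 4 libraries although its 3 regions had ATAC fold enrichments of 6.14 to 8.04. Of the 3 Eya1 regions, 1 had all 3 marks in both E16.5 libraries, 1 had H3K9ac in both, and 1 had none.

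The RNA libraries held 17533164 and 18024657 counts at E16.5 and 17059544 and 18485855 at E13.5. Markers of other cells in the tissue also moved between the stages. All 5 microglia markers, 4 endothelial markers and 3 pericyte markers were higher at E16.5, summing to 89.4 and 89.3 CPM, 249 and 257 CPM, and 154 and 170.3 CPM, against 39.1 and 36.6 CPM, 72.7 and 81.8 CPM, and 53.3 and 52.9 CPM at E13.5. Of 4 erythroid markers 3 were higher (2262 and 3074 CPM at E16.5, 1331 and 1229.9 CPM at E13.5), of 5 markers of meninges and mesenchyme 1 (25.3 and 25.5 CPM at E16.5, 9.04 and 22.5 CPM at E13.5), and all 9 telencephalon markers were lower (1800.2 and 1802 CPM at E16.5, 2773 and 2698 CPM at E13.5). The part of cell composition in the RNA and mark values was not tested.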

How the data were processed

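Peak lists of 2 libraries per group and an RNA table were used. Per the submitters' processing notes, the build was GRCm38, MACS2 2.2.7.1 and Bowtie2 2.4.1 were used for ChIP-seq and ATAC-seq, and Salmon 1.1.0 and DESeq2 1.26.0 for RNA-seq. Per the file headers, each peak has a signal value (pileup at the summit), a -log10 p-value and -log10 q-value, and a ratio (fold enrichment over local background); these are the authors' values and were only used to describe, rank or filter peaks. The peak-calling control, the treatment of duplicates and the read depth behind the peaks were not given in the sources used here. All 4 input libraries were not analysed here. The authors' deposited RNA table holds expected counts, unscaled, of which 24.4% to 25.3% per library are not whole. A second deposited table holds log2 fold changes and p-values of the authors' comparison; only its gene symbols, identifiers and gene types were used.

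Peaks on chromosomes 1 to 19 and X were merged at 1 bp overlap with Python 3.11.15, and counts were checked with bedtools 2.31.1. Where several peaks fell in a region, the highest value was taken. Genes came from RefSeq on GRCm38.p6 (21627 protein-coding, of which 21090 had a row in the RNA table), and promoter windows from the same build for 17273 of them, none on chromosome 18. No genome sequence was used, so motifs were searched in promoter windows only, not over all regions. After rounding, the expected counts went into edgeR 4.0.16 under R 4.3.3 (quasi-likelihood F test, TMM, filterByExpr, 2 residual degrees of freedom), with Benjamini-Hochberg adjustment over 16237 genes and a threshold of 0.05; the procedure was tested on simulated data. CPM are TMM-scaled for tested genes and scaled to library totals for the others and for summed markers. Wilson intervals cover counting of regions only, and regions are not replicates, so no test over regions was made. The p-values set a stage difference against the spread between libraries, estimated with information shared across genes.

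The regions, gene lists and tests were chosen with earlier results of these data known. Named regions were the 10 with the highest mean ATAC fold enrichment (1 per gene), the 4 highest per mark at E16.5 and the 3 nearest the overlap limit on each side. Named genes were the 5 with most regions, the 8 rising and 8 falling with the largest change (mean of at least 10 CPM, stages not overlapping), 4 of each with H3K9ac or H3K9cr gained, up to 4 per list, and CTCF, cohesin and REST genes. Promoter genes, genes with the most regions in their body, the split by gene span and the sequences shown were chosen after their values were seen. Alternatives were peak and overlap thresholds, gene windows, scaling, filtering, DESeq2 1.42.0, a replicate block and leaving out each library.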

Additional observations from a re-analysis of the deposited data

How the results depend on the processing

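The number of unmarked regions depended on the ATAC libraries and on the rule. Under other rules it moved from 2566 to 1516 with ATAC peaks of -log10 q of at least 5, to 3935 when mark peaks had to cover most of a region, and to 1644 when a mark peak within 1000 bp counted; it was 2810 with stricter mark peaks and 3624 when a mark needed both libraries. The share at gene ends was 3.98% with a window of 1000 bp and 11.5% with 5000 bp. The E16.5 shares of H3K9ac, H3K9cr and H3K18la were 6.66%, 4.48% and 3.86% with E16.5 peaks of -log10 q of at least 5, and 17.8%, 13.3% and 16.7% when either library was enough. They were 6.14%, 5.17% and 2.55% for regions with no mark within 1000 bp. With equal numbers of peaks per list of a mark H3K9ac fell to 4.01% and H3K9cr to 2.59%, and H3K18la was 5.34%.

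Leaving out 1 library at a time gave 2584 to 7018 unmarked regions (7018 and 6052 without ATAC replicates 1 and 2, at most 3077 without a mark library). The share at gene ends was then 5.49% to 6.04%, and the E16.5 shares 6.44% to 13.6% for H3K9ac, 4.47% to 10.5% for H3K9cr and 3.8% to 14.9% for H3K18la. Linked genes numbered 336 to 365 higher and 254 to 265 lower. With a link of at most 20000 bp, 181 (33.8%) were higher and 160 (29.9%) lower of 536, against 28.4% and 29.2% of all tested genes. DESeq2 called 319 higher (22.2%) and 233 lower (16.2%) of 1436 linked genes, against 6.13% and 6.96% of all 55385 genes. Those 55385 include non-coding genes and genes without any count, while the linked genes are protein-coding. The linked and background shares are therefore not comparable in this setting. Upper-quartile scaling shifted the median of all genes to 0.10 on the log2 scale. It called 458 (42.5%) and 234 (21.7%) of 1077, against 32.9% and 23.5% of all tested genes. No filter gave 393 (30.7%) and 294 (22.9%) of 1282, against 16.8% and 18.7% of all 26550 genes with any count after rounding. That background also holds non-coding genes and genes of very low count, so these shares are not comparable either. The replicate block gave 418 higher (38.8%) and 293 lower (27.2%) linked genes, against 28.8% and 29.9% of all tested genes. The labels give only replicate numbers, and deviations of same-numbered libraries correlated at 0.125 across genes, with only 2 pairs, so the numbers were not taken as a pairing. Of 85 alternatives, 50 gave a share within the 95% Wilson interval of the reported share or, for counts, a count within 1.5 times the reported one. The other 35 lay outside these limits, and why each moved was not tested. Among them were the E16.5 shares of each mark when 1 of its E16.5 libraries was left out. Of the named genes, Tle4 lost its call with DESeq2 (adjusted p = 0.0592), Foxp2 with DESeq2 and without RNA replicate 1 of either stage, and Kcnq3, Usp29 and Ttr were called under some alternatives. Read depth of the ATAC and ChIP libraries is unknown, so a missing peak cannot be set against depth.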

Other observations

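The unmarked share of open regions differed between chromosomes. It was lowest on chromosome 7 (80 of 1060 open regions, 7.55%) and chromosome 11 (86 of 967, 8.89%), and highest on chromosome 3 (238 of 1221, 19.5%) and chromosome 10 (201 of 1068, 18.8%). No test was made over chromosomes, and gene density was not compared.

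Unmarked regions with an E13.5 mark peak within 1000 bp and those without one lay at similar places. Gene ends held 6.29% and 5.54%, gene bodies 38.9% and 37.8%, and stretches between genes 54.8% and 56.7%. Their median lengths were 247 and 252 bp and their median ATAC fold enrichments 6.46 and 6.91 in replicate 1 and 6.83 and 6.93 in replicate 2. Of the tested genes linked to them, 39.6% and 37.5% were higher and 28.1% and 25.2% lower at E16.5.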
